A study of Mus musculus with 9 samples.

Results

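The 7 genes described here are FGF receptors and FGF ligands of bone cells, chosen by name from the 55416 genes of the count table. The receptors were Fgfr1, Fgfr2, Fgfr3 and Fgfrl1, and the ligands were Fgf2, Fgf7 and Fgf18. They were read in MC3T3-E1 cells, a mouse calvarial pre-osteoblast line of wild-type genotype, used here as subclone 4. All 9 libraries came from cells differentiated in osteogenic medium that held 10 mM β-glycerophosphate (BGP), ascorbic acid and dexamethasone, so the Control cells had been exposed to BGP earlier as well. The labels give 27 days of differentiation, whereas the study's methods have BGP in the medium for only part of that time. At day 27 the cells received 4 mM BGP, an organic phosphate, 4 mM NaHPO4 (a mix of Na2HPO4 and NaH2PO4), an inorganic phosphate, or neither (Control). They were treated for 16 h and harvested at day 28, with 3 libraries per condition. The base medium itself held inorganic sodium phosphate in every condition, Control included, and the study names this as a possible confounder. From alkaline phosphatase activity, the study also infers that these cultures break BGP down and release inorganic phosphate. The BGP cells may thus have met both forms, and the amount released in these cultures was not tested here. The libraries come from a single clonal line grown in culture, and no source used here says whether the replicates were separate cultures, so p-values measure only the spread between these libraries.

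Fibroblast growth factors bind receptor tyrosine kinases at the cell surface, together with heparan sulfate chains that hold ligand and receptor in a complex. The activated receptor passes its signal through the docking protein FRS2 to the RAS and ERK kinases, and this induces feedback inhibitors of the Sprouty and dual-specificity phosphatase families. In bone, FGFR1, FGFR2 and FGFR3 control osteoblast and chondrocyte growth, and activating mutations of each cause skeletal disorders. FGFR1 has been linked to phosphate sensing by bone cells, and the comparison of organic with inorganic phosphate asks how bone cells tell these sources apart. FGFRL1 binds FGF ligands but lacks the kinase domain. FGF2 is stored in bone matrix, FGF7 is a mesenchymal ligand that acts mostly on the epithelial splice form of FGFR2, and FGF18 promotes skeletal growth and ossification.

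In GRCm39, the build the authors used, the main transcript of Fgfr1 (ENSMUSG00000031565) covered chromosome 8, plus strand, bases 26008745 to 26066824, in 18 exons. That of Fgfr2 (ENSMUSG00000030849) covered chromosome 7, minus strand, bases 129763471 to 129868272, also in 18 exons. Fgfr3 (ENSMUSG00000054252) and Fgfrl1 (ENSMUSG00000008090) shared chromosome 5, both on the plus strand, with Fgfr3 from 33879067 to 33894412 in 18 exons and Fgfrl1 from 108842057 to 108858366 in 7 exons. Among the ligands, Fgf2 (ENSMUSG00000037225) covered chromosome 3, plus strand, bases 37402495 to 37464257, in 3 exons. Fgf7 (ENSMUSG00000027208) covered chromosome 2, plus strand, bases 125876578 to 125933408, in 4 exons. Fgf18 (ENSMUSG00000057967) covered chromosome 11, minus strand, bases 33067014 to 33097828, in 5 exons. Gene-level counts do not separate the IIIb and IIIc splice forms of FGFR1, FGFR2 and FGFR3, which bind different ligands.

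The RefSeq promoter table (GRCm38.p6), whose windows were placed on GRCm39 by exact match, held 6 of the 7 genes, all but Fgfr1. Sequence is shown for Fgf2, Fgfr3 and Fgfr2, the genes with an entry that passed a test of phosphate treatment. Each is written 5′ to 3′ on the strand of the gene. Capitals mark matches, on either strand, to the EGR motif (GCGNGGGCG) or to the SP/KLF motif (GGGCGG).
Fgf2, 30 bases at chr3:37402745-37402774, plus strand: ggcgcgcgGGGCGGGGGCGcacggggccgg
Fgfr3, 200 bases at chr5:33878818-33879017, plus strand: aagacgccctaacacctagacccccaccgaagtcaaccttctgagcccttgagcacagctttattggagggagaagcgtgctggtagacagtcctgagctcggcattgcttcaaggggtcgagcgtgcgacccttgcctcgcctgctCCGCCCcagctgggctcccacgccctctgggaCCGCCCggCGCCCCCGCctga
Fgfr2, 250 bases at chr7:129868539-129868788, minus strand: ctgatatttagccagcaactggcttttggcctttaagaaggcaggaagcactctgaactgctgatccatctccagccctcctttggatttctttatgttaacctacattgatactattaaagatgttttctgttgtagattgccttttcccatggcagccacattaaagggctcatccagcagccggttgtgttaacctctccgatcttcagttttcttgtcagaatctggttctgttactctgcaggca
The Fgf2 stretch lies within the first exon and holds an EGR match that overlaps an SP/KLF match. In the Fgfr3 stretch, both SP/KLF matches and the EGR match are written as their reverse complement. The Fgfr2 stretch held none of the motifs searched. It ends at base 129868539, upstream of the start of the main transcript at base 129868272. The bases between were not searched.

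The windows searched were the 250 bases before each start in the RefSeq table, which for Fgf2 and Fgf18 lie wholly within annotated exons of the gene. There were 7 windows for the 6 genes. The EGR motif matched in Fgf2, in Fgfrl1 and in 1 of the Fgfr3 windows. Of 32851 mouse promoter windows of that length, 4.7% held a match. SP/KLF matches stood in Fgf2, in both Fgfr3 windows, in Fgfrl1 and in Fgf18, against 32.7% of all windows. The CRE core (TGACG, 17.8% of windows) matched at 2 positions in Fgf2, and the AP-1 motif (TGANTCA, 6.75% of windows) matched in no window of these genes. The windows of Fgf7 and Fgfr2, which held no match, had a GC content of 43.6% and 44.0%. Those of the other genes had from 62.4% in Fgf2 to 77.2% in Fgf18. The shares of all windows given here were not matched for GC content. These are matches of letters, and no binding was measured.

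Total counts ranged from 21390839 to 28234404 per library, and replicates of each condition differed by more than sampling noise. Of the 7 genes, 6 passed the filter on low counts and were tested among 13679 genes. Fgf18 did not. All 9 osteoblast markers listed (such as Runx2, Sp7 and Col1a1) passed the filter. The osteocyte markers, which include Dmp1 and Sost, also passed, in 6 of 6 cases. Markers of other cells gave a mixed picture. Myod1 had 0 counts in every library, and Ptprc and the cartilage gene Acan had 0 to 1 counts. Of the other chondrocyte markers, Col2a1 was at 142 to 403 CPM (counts scaled to library size), Sox9 at 34.4 to 43.3 CPM and Comp at 10.6 to 18.4 CPM. Ctsk, from the macrophage or osteoclast list, was at 249 to 295 CPM.

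The receptor tyrosine kinases were far more abundant than the ligands. In Control cells, the level per kilobase of exon was 78.3 ± 1.04 CPM per kilobase for Fgfr2 (SD, n = 3), 72.1 ± 1.41 for Fgfr3 and 55.6 ± 1.27 for Fgfr1. Among the 13679 genes ranked by Control CPM without length correction, Fgfr2 stood at rank 80, Fgfr1 at 109 and Fgfr3 at 137. The ligand Fgf7 followed at 8.0 ± 1.49 CPM per kilobase, the kinase-less receptor Fgfrl1 at 4.61 ± 0.152 and Fgf2 at 2.6 ± 0.0984. Fgf18 was last at 0.0321 ± 0.00963 CPM per kilobase. The same order held in the BGP and in the NaHPO4 cells, and in each condition the ranges of neighbours in the order did not overlap. The step between Fgfr1 and Fgf7 was 6.95-fold in Control, and that between Fgfr3 and Fgfr1 narrowed from 1.3-fold in Control to 1.06-fold in NaHPO4. In Control, the longest annotated transcript as the length kept the order but raised the levels to 157 (Fgfr2), 130 (Fgfr3) and 116 (Fgfr1) CPM per kilobase. With NaHPO4 that length would place Fgfr1 (769 CPM over 6145 bases) above Fgfr3 (562 CPM over 4895 bases). Their order there thus depends on the length used.

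**Figure D1:**
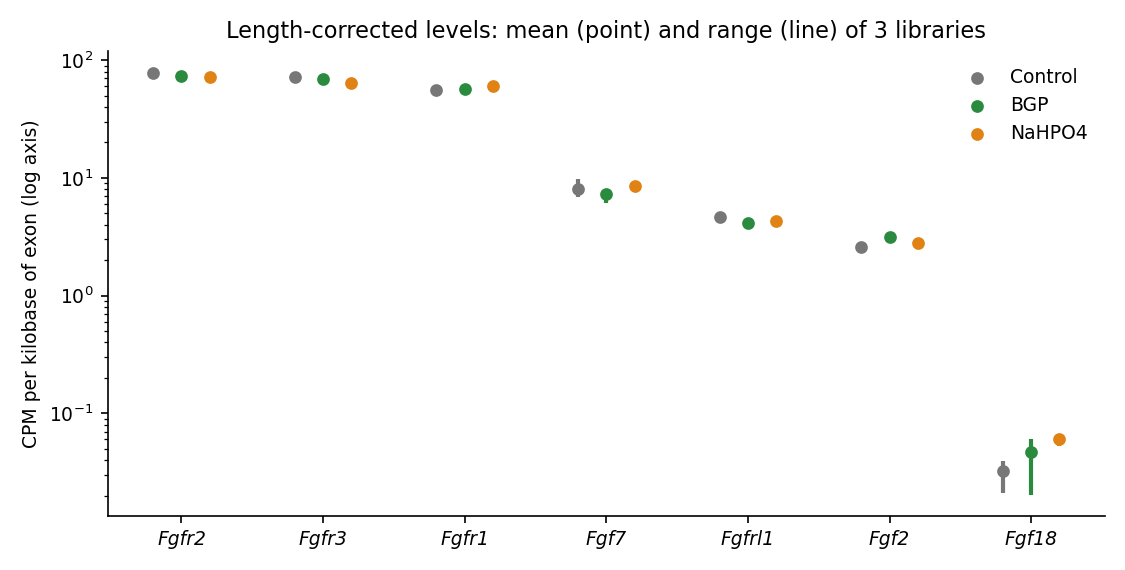
Level of each gene in CPM per kilobase of exon on a log axis, by condition, with points for the mean and lines for the range of 3 libraries (lines shorter than the point are hidden by it). The receptor kinases lie between 54.2 and 79.5 CPM per kilobase, Fgf7, Fgfrl1 and Fgf2 between 2.49 and 9.7, and Fgf18 at 0.0659 at most.

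The first comparison asked how organic phosphate moved these genes against Control. BGP raised Fgf2, the matrix-bound ligand, 1.22-fold, and no other member passed the test, which was an adjusted p below 0.05 from edgeR's quasi-likelihood test. Thus 1 of 6 tested members was called, beside 2.53% of all tested genes (1.86% higher and 0.665% lower with BGP). Fgfr2 and Fgfr3 lay lower in every BGP library than in every Control library but did not pass. With Fgf2 these made 3 members whose libraries did not overlap, beside 18.5% of all tested genes.

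Inorganic phosphate was compared with Control in the same way. With NaHPO4, Fgfr1 rose 1.08-fold, Fgfr2 fell by 8.1% and Fgfr3 fell by 11.7%, while the ligands and Fgfrl1 did not pass the test. This was 3 of 6 tested members, beside 7.38% of all tested genes, with 3.43% higher and 3.95% lower. The same 3 members had libraries that did not overlap, beside 23.2% of all tested genes. When the 2 phosphates were set against each other, BGP cells held 1.08-fold more Fgfr3 RNA, which made 1 of 6 tested members beside 5.38% of all tested genes (3.33% higher and 2.05% lower with BGP). Libraries did not overlap for 4 members there (Fgfr1, Fgfr3, Fgf2 and Fgf7), beside 21.2% of all tested genes. These comparisons share libraries and are not independent of one another.

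The changes were small. No member reached an absolute log2 fold change of 0.5, the minimum the study set for a differentially expressed gene, and the largest was 0.29. Of all tested genes, 0.556% passed both thresholds for BGP against Control, 0.716% for NaHPO4 against Control and 0.585% for BGP against NaHPO4. The median absolute log2 fold change over all tested genes was 0.07 for BGP against Control, 0.08 for NaHPO4 against Control and 0.08 for BGP against NaHPO4. The receptor kinases were measured with standard errors of 0.0302 to 0.0315 on the log2 scale, against a median over all genes of 0.0701 in the first comparison. The members' median log2 fold change was -0.08 for BGP against Control, 0 for NaHPO4 against Control and -0.01 for BGP against NaHPO4, and that of all tested genes was 0 in each.

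**Figure D2:**
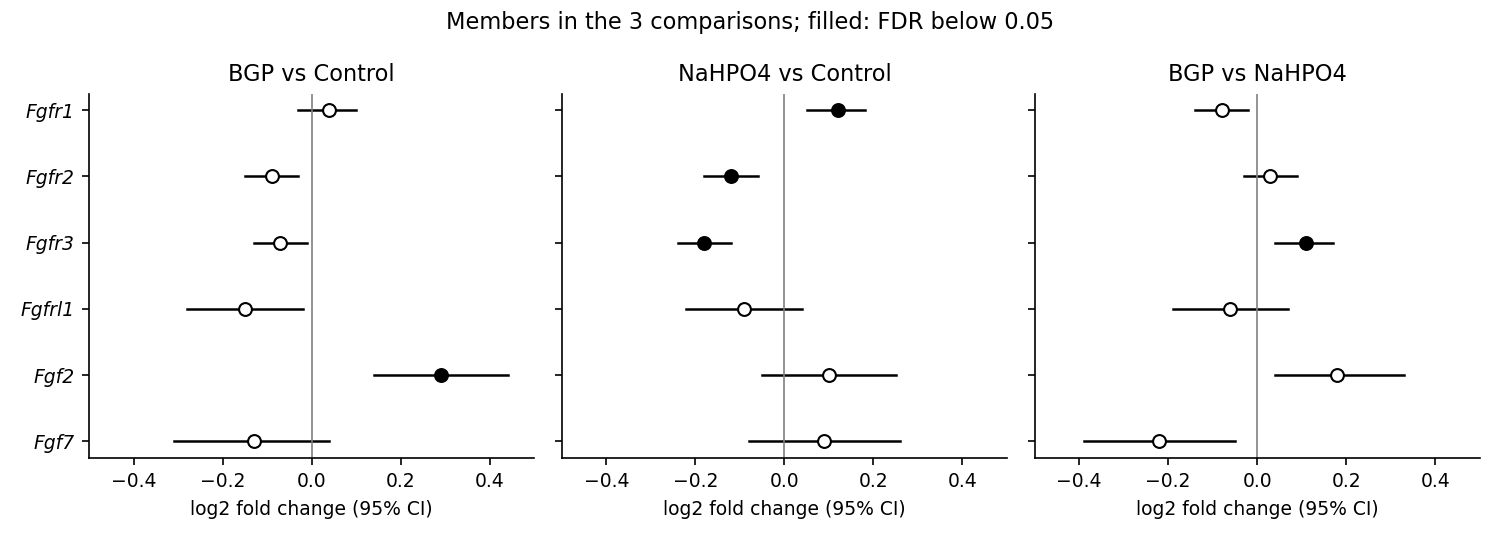
Log2 fold change of the 6 tested genes in each comparison, with 95% confidence intervals from edgeR's quasi-likelihood fit, and filled points where the adjusted p was below 0.05. Fgf2 is filled for BGP against Control, Fgfr1, Fgfr2 and Fgfr3 for NaHPO4 against Control, and Fgfr3 for BGP against NaHPO4.

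Fgfr1, the receptor linked to phosphate sensing, was read at 713, 692 and 724 CPM in the Control libraries. It was at 746, 716 and 722 CPM with BGP and at 773, 763 and 770 CPM with NaHPO4. Every NaHPO4 library was above every other library, while BGP and Control overlapped. The log2 fold change for NaHPO4 against Control was 0.12 (SE 0.0308, 95% confidence interval 0.05 to 0.18, adjusted p = 0.014). That for BGP against Control was 0.04 (interval -0.03 to 0.1, adjusted p = 0.672). BGP against NaHPO4 gave -0.08 (interval -0.14 to -0.02, adjusted p = 0.149), a difference that was not called although the libraries did not overlap. Without Control replicate 2, the lowest Control library, the NaHPO4 change was 0.1 with an adjusted p of 0.078.

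Fgfr2, whose gain-of-function mutations fuse skull sutures early, was at 880, 902 and 883 CPM in Control. It fell to 823, 821 and 805 CPM with NaHPO4, and stood at 815, 843 and 847 CPM with BGP. All treated libraries lay below all Control libraries, and the treated groups overlapped each other. NaHPO4 against Control gave a log2 fold change of -0.12 (SE 0.0302, interval -0.18 to -0.06, adjusted p = 0.00764). The BGP value was -0.09 (interval -0.15 to -0.03, adjusted p = 0.13), and DESeq2 called it at an adjusted p of 0.0409. BGP and NaHPO4 differed by 0.03 (interval -0.03 to 0.09, adjusted p = 0.659).

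Fgfr3, a brake on growth plate cartilage, was at 645, 641 and 622 CPM in Control, at 587, 613 and 618 CPM with BGP and at 570, 560 and 556 CPM with NaHPO4. No pair of conditions overlapped, with Control highest and NaHPO4 lowest. The log2 fold change for NaHPO4 against Control was -0.18 (SE 0.0314, interval -0.24 to -0.12, adjusted p = 0.000139). For BGP against Control it was -0.07 (interval -0.13 to -0.01, adjusted p = 0.305). Directly compared, BGP was higher than NaHPO4 by 0.11 (SE 0.0315, interval 0.04 to 0.17, adjusted p = 0.0324). This last call was lost without BGP replicate 2, BGP replicate 3, NaHPO4 replicate 2 or NaHPO4 replicate 3 (adjusted p 0.122, 0.159, 0.123 and 0.104), and with total counts in place of TMM (0.08, adjusted p = 0.139). Reads of the antisense gene G630022F23Rik, which shares 412 bases of exon with the main Fgfr3 transcript, numbered 2 to 12 per library against at least 13006 for Fgfr3.

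Fgfrl1, the receptor without a kinase, was at 33.1, 33.5 and 31.5 CPM in Control. With BGP it was at 27.7, 28.2 and 32.4 CPM, and with NaHPO4 at 30.6, 32.6 and 29 CPM. The conditions overlapped in each comparison. None of its changes passed the test, with log2 fold changes of -0.15 for BGP (interval -0.28 to -0.02, adjusted p = 0.287) and -0.09 for NaHPO4 (interval -0.22 to 0.04, adjusted p = 0.491). BGP and NaHPO4 differed by -0.06 (interval -0.19 to 0.07, adjusted p = 0.704).

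**Figure D3:**
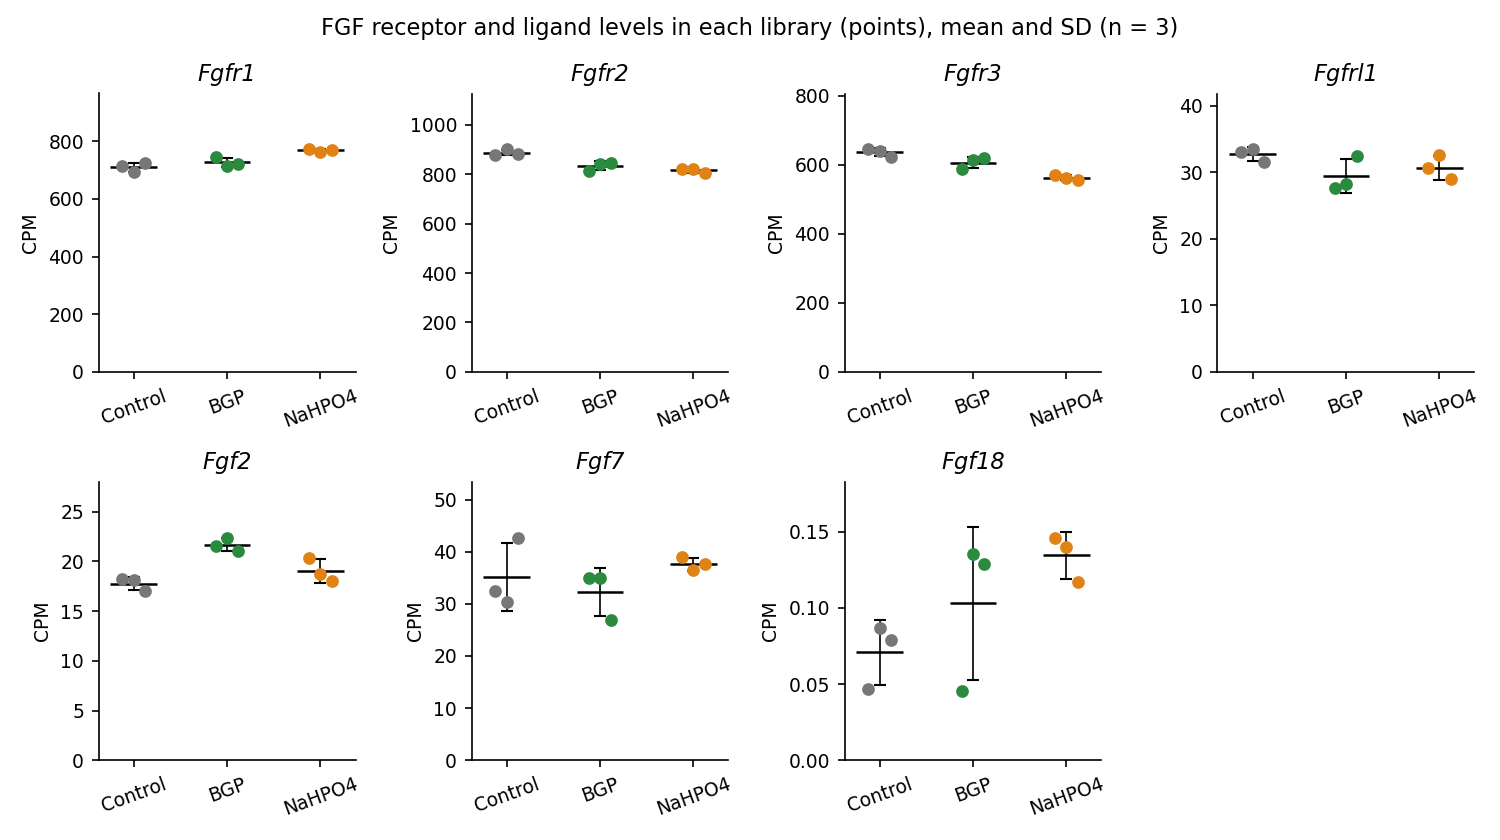
TMM-scaled CPM of each gene in each library, with a bar for the mean and whiskers for the SD of 3 libraries; axes start at 0. Fgfr1 is highest with NaHPO4, Fgfr2 and Fgfr3 are highest in Control, Fgf2 is highest with BGP, and Fgf18 is at 0.146 CPM at most.

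Fgf2 was read at 18.2, 18.1 and 17 CPM in Control and at 21.6, 22.4 and 21.1 CPM with BGP. With NaHPO4 it was at 20.4, 18.7 and 18 CPM. The BGP libraries were above all others, and the NaHPO4 and Control libraries overlapped. The log2 fold change for BGP against Control was 0.29 (SE 0.0744, interval 0.14 to 0.44, adjusted p = 0.0279). NaHPO4 against Control gave 0.1 (interval -0.05 to 0.25, adjusted p = 0.489), and BGP against NaHPO4 gave 0.18 (interval 0.04 to 0.33, adjusted p = 0.157), so a difference between the phosphates did not pass the test.

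The Fgf2 call rested on few libraries and close counts. Its counts were 390 to 432 in Control and 478 to 498 with BGP. The adjusted p rose to 0.0563, 0.059 and 0.129 without Control replicate 1, 2 or 3, and to 0.0829 and 0.126 without BGP replicate 1 or 2. Fgf2 also shares 3002 bases of exon, 47.8% of its main transcript, with Nudt6 on the opposite strand, and no source used here says whether strand was used in counting. Nudt6 had 50 to 95 counts per library and a log2 fold change of -0.01 for BGP against Control (adjusted p = 0.993).

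Fgf7, the mesenchymal ligand, varied most between replicates in Control and BGP among the tested members. It was at 32.4, 30.4 and 42.7 CPM in Control, at 34.9, 35 and 26.9 CPM with BGP and at 38.9, 36.4 and 37.6 CPM with NaHPO4. The coefficient of variation in Control was 18.7%, against 1.33% to 3.78% for the other tested members. All NaHPO4 libraries were above all BGP libraries, and Control overlapped both. The log2 fold change for BGP against NaHPO4 was -0.22 (interval -0.39 to -0.05, adjusted p = 0.135). Neither phosphate differed from Control in the test, with -0.13 for BGP (interval -0.31 to 0.04, adjusted p = 0.553) and 0.09 for NaHPO4 (interval -0.08 to 0.26, adjusted p = 0.61). The values against Control depended on single Control libraries. Without Control replicate 3 the BGP value was 0.04 (adjusted p = 0.906), the NaHPO4 value was 0.26 (adjusted p = 0.0346), and BGP against NaHPO4 passed at -0.22 (adjusted p = 0.0456). Without Control replicate 2 the NaHPO4 value was -0.0045 (adjusted p = 0.987).

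Fgf18, a ligand of skeletal growth, had 1, 2 and 2 counts in the Control libraries, 1, 3 and 3 with BGP and 4, 4 and 3 with NaHPO4. These counts are at or near the limit of 3 that a count of 0 allows, and no fold change is given.

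The balance between receptors can be read within each library, where scaling does not enter. The ratio of Fgfr1 to Fgfr2 counts was 0.811, 0.768 and 0.82 in Control. It was 0.915, 0.849 and 0.852 with BGP and 0.939, 0.929 and 0.958 with NaHPO4. The ratio of Fgfr1 to Fgfr3 was 1.11, 1.08 and 1.16 in Control, 1.27, 1.17 and 1.17 with BGP and 1.36, 1.36 and 1.39 with NaHPO4. For both ratios no pair of conditions overlapped, and the order was Control, BGP, NaHPO4. For Fgfr1 to Fgfr3, however, the highest Control value (1.16) and the lowest BGP value (1.17) nearly met. How often ratios of other genes do not overlap was not computed.

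The ratio of Fgfr2 to Fgfr3 was higher with NaHPO4 (1.45 ± 0.0122, SD, n = 3) than in any library with BGP (1.38 ± 0.0101) or Control (1.4 ± 0.0292), and the latter groups overlapped. The ratio of Fgfrl1 to Fgfr1 was 0.0461 ± 0.00249 in Control, 0.0405 ± 0.00401 with BGP and 0.04 ± 0.00258 with NaHPO4, and only Control and NaHPO4 did not overlap. In the two-sided exact permutation test of each ratio, all comparisons without overlap gave p = 0.1 (0.133 after Benjamini-Hochberg adjustment over 12 comparisons), the smallest p that 3 libraries against 3 allow, so these comparisons cannot pass a threshold of 0.05. Of the summed level per kilobase of the 4 receptors, Fgfr1 made up 26.4% ± 0.695 in Control, 28.0% ± 0.939 with BGP and 30.1% ± 0.298 with NaHPO4. The share of Fgfr3 was 34.2% ± 0.509, 33.7% ± 0.538 and 31.8% ± 0.145. These shares take the union of exons as the length. With the longest transcript as the length, Fgfr1 would hold a larger share than Fgfr3 with NaHPO4.

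**Figure D4:**
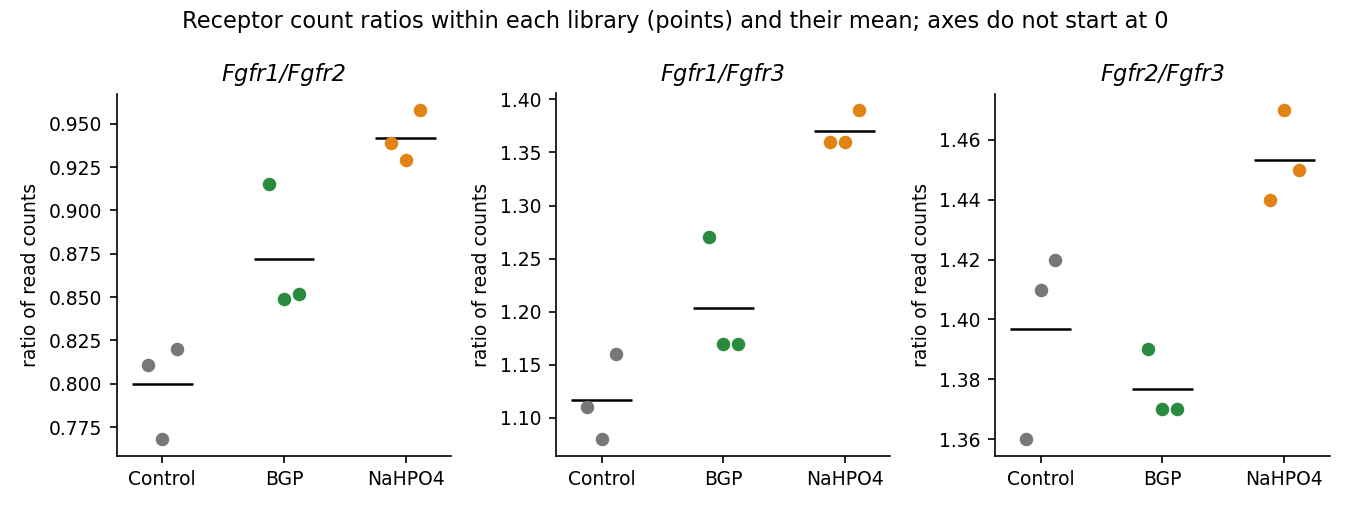
Ratios of read counts between receptor genes within each library, with a line at the mean of 3 libraries; the axes do not start at 0. The Fgfr1 to Fgfr2 ratio runs from 0.768 to 0.82 in Control, 0.849 to 0.915 with BGP and 0.929 to 0.958 with NaHPO4.

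Levels of marker genes also differed between the conditions. The summed CPM of the 9 osteoblast markers was 112000 to 119000 in Control, 112000 to 118000 with BGP and 104000 to 111000 with NaHPO4. Col1a1 and Col1a2, which make up most of this sum, had lower means with NaHPO4, whereas Spp1 was at 1740 ± 127 CPM in Control, 4840 ± 349 with BGP and 6790 ± 576 with NaHPO4. The 6 osteocyte markers summed to 138 to 159 CPM in Control, 600 to 687 with BGP and 386 to 445 with NaHPO4. Dmp1 carried the rise of this sum, at 76 ± 10.4, 552 ± 41.8 and 349 ± 30.3 CPM in that order. Mepe was at 3.45, 3.44 and 3.07 CPM, Pdpn at 30.5, 30.1 and 30.4 CPM, and Sost at 1.39, 1.21 and 0.427 CPM. The 5 chondrocyte markers, 4 of which passed the filter, summed to 261 to 324, 351 to 457 and 196 to 277 CPM in the same order, most of it Col2a1. The 5 markers of macrophages or osteoclasts summed to 290 to 297 CPM in Control, 276 to 287 with BGP and 250 to 263 with NaHPO4. Almost all of that sum was Ctsk. The part of these markers in the receptor changes was not tested, and in bulk RNA fewer cells of a type and less RNA per cell cannot be told apart. Of the adipocyte markers 1 of 5 passed the filter (Fabp4, 9.75 to 15.5 CPM), of the myoblast markers 1 of 4 (Des, 7.32 to 10.1 CPM), and of the endothelial markers 0 of 4, which summed to 0.187 CPM at most.

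Of the other FGF ligands and Fgfr4, 20 genes in all, 3 passed the filter and were tested, which were Fgf1, Fgf11 and Fgf23. The other 17 included 7 with 0 counts in every library, which allows up to 3 counts in each, and none exceeded 7 counts. Fgfr4, the remaining receptor kinase, had 0 to 1 counts. Fgf11 was at 5.03 ± 0.891 CPM in Control, 4.84 ± 0.36 with BGP and 5.05 ± 0.399 with NaHPO4, and Fgf1 was below 1 CPM in every library. Fgf23, the phosphate-regulating hormone, was at 1.2 ± 0.367 CPM in Control, 8.39 ± 1.6 with BGP and 1.54 ± 0.271 with NaHPO4, and its log2 fold change for BGP was 2.78 (SE 0.203, adjusted p = 1.07e-12). For NaHPO4 against Control, 0 of the 3 passed edgeR's quasi-likelihood test, beside 7.38% of all tested genes. At an unadjusted p under 0.05 there were 0, and by DESeq2 or limma 0.

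Co-receptors, heparan sulfate proteoglycans and FGF binding proteins numbered 18, of which 12 were tested. Against Control, 2 rose and 0 fell with BGP, beside 2.53% of all tested genes called, and 0 rose and 4 fell with NaHPO4, beside 7.38%. The BGP count was 1 in 7 of 18 alternatives, those in which Sdc4 lost its call. Between the phosphates, 4 were higher with BGP and 0 lower, beside 5.38% called. Gpc1, a cell surface proteoglycan that binds FGFs, was at 1450 ± 20.6 CPM in Control, 1410 ± 27.8 with BGP and 1180 ± 10.1 with NaHPO4. Its log2 fold change for NaHPO4 against Control was -0.3 (SE 0.0296, adjusted p = 3.23e-09). Hspg2, the basement membrane proteoglycan perlecan, fell by 0.21 on the log2 scale with NaHPO4 (adjusted p = 0.00141), a call that DESeq2 did not make.

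The syndecans Sdc1 and Sdc4 carry heparan sulfate chains through the membrane. Sdc1 rose with BGP, from 262 ± 10.6 to 311 ± 4.13 CPM (log2 fold change 0.25, SE 0.0344, adjusted p = 7.01e-06), and was at 264 ± 5.22 CPM with NaHPO4. Sdc4 was at 228 ± 8.55 CPM in Control, 249 ± 2.31 with BGP and 208 ± 5.73 with NaHPO4. It was higher with BGP than with NaHPO4 by 0.26 on the log2 scale (SE 0.0349, adjusted p = 2.37e-06). Against Control it changed by 0.13 with BGP (adjusted p = 0.0397) and by -0.13 with NaHPO4 (adjusted p = 0.0118), and both of these calls were lost when some single libraries were left out. The first was lost without Control replicate 2 or 3, any BGP replicate or NaHPO4 replicate 2 (adjusted p 0.0557 to 0.221), and the second without Control replicate 1 or NaHPO4 replicate 3 (adjusted p 0.133 and 0.0826).

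**Figure D5:**
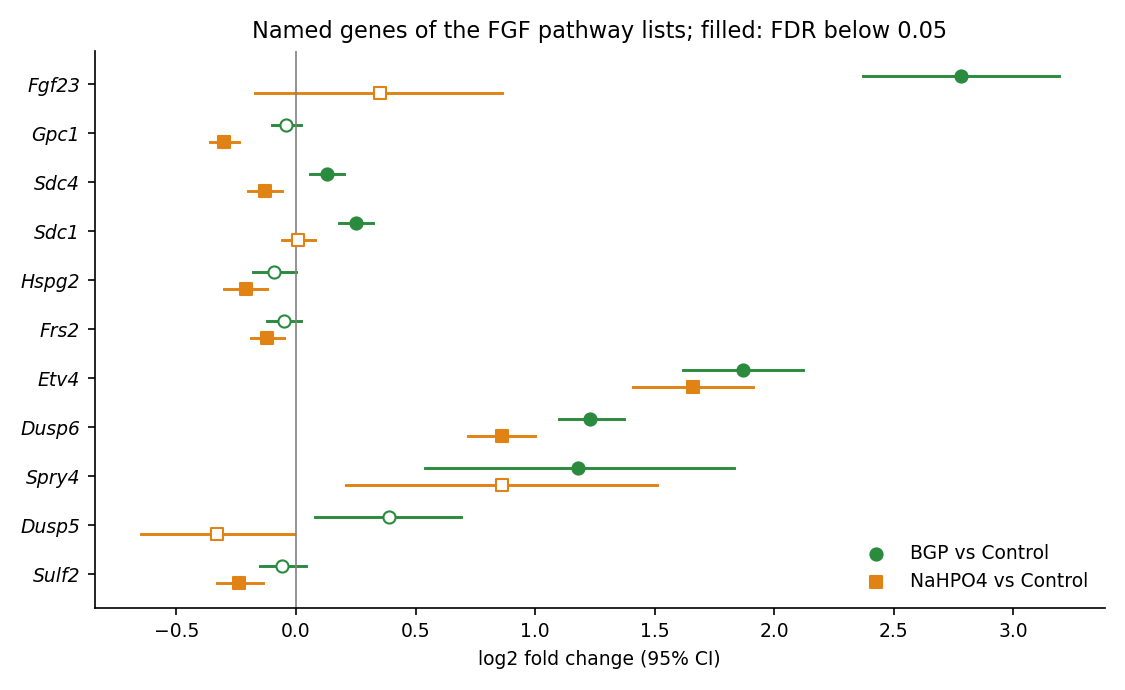
Log2 fold change against Control, with 95% confidence intervals, of the named genes around the receptors, for BGP (circles) and NaHPO4 (squares), filled where the adjusted p was below 0.05. Fgf23 (2.78), Sdc1 and Spry4 are filled for BGP alone, and Gpc1, Hspg2, Frs2 and Sulf2 for NaHPO4 alone between -0.3 and -0.12. Etv4, Dusp6 and Sdc4 are filled for both, with Sdc4 in opposite directions, and Dusp5 for neither.

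Of the enzymes that build or trim heparan sulfate, 9 of 16 were tested. None passed for BGP against Control (0 by edgeR, DESeq2 or limma, and 1 at an unadjusted p under 0.05), beside 2.53% of all tested genes. For NaHPO4 against Control 1 was called, beside 7.38% of all tested genes. This was Sulf2, which removes sulfate groups from heparan sulfate outside the cell. It was at 88.3 ± 2.68 CPM in Control, 84.8 ± 2.14 with BGP and 74.9 ± 6.3 with NaHPO4, a log2 fold change of -0.24 for NaHPO4 (SE 0.0468, adjusted p = 0.000633). Sulf2 was also the 1 call between the phosphates, higher by 0.18 with BGP (adjusted p = 0.015), beside 5.38% of all tested genes. Leaving out NaHPO4 replicate 1 ended that call (adjusted p = 0.146), as did leaving out replicate 2 or 3 of BGP (0.0521 and 0.0803), and 0 calls were then left in the list.

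The adaptors and kinases that carry the receptor signal changed little. All 19 were tested, among them Frs2, Grb2 and Sos1. Against Control, 0 passed edgeR's quasi-likelihood test with BGP, beside 2.53% of all tested genes. At an unadjusted p under 0.05 there were 2, and by DESeq2 or limma 0. The same counts held between BGP and NaHPO4, beside 5.38% of all tested genes called. Frs2, the docking protein of the receptors, was at 212 ± 5.94 CPM in Control and 195 ± 3.68 with NaHPO4. It was the 1 gene called there (log2 fold change -0.12, SE 0.0345, adjusted p = 0.0201), beside 7.38% of all tested genes. That call was lost with total counts in place of TMM, and without Control replicate 2, Control replicate 3 or NaHPO4 replicate 3.

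Among the lists of surrounding genes given here, the feedback genes below the receptors held the largest called changes against Control after Fgf23. Of 15 genes 14 were tested. With BGP 6 rose and 0 fell, beside 1.86% of all tested genes that rose. With NaHPO4 4 rose and 0 fell, beside 3.43%. At an unadjusted p under 0.05 in edgeR's quasi-likelihood test there were 8 with each phosphate, in either direction. Over 18 alternatives the count called ran from 4 to 6 with BGP and from 3 to 6 with NaHPO4, so the counts do not separate the phosphates. In the direct comparison of the phosphates, 2 genes (Dusp5 and Dusp6) were higher with BGP, beside 3.33%. Etv4, a transcription factor induced by ERK signalling, was at 4.64 ± 0.576 CPM in Control, 17 ± 1.83 with BGP and 14.8 ± 2.39 with NaHPO4. Its log2 fold changes were 1.87 (SE 0.123, adjusted p = 6.01e-14) and 1.66 (SE 0.123, adjusted p = 2.22e-12). Dusp6, the ERK phosphatase, was at 45.8 ± 6.93, 108 ± 10.8 and 83.5 ± 5.9 CPM in the same order, and its difference between BGP and NaHPO4 was 0.37 on the log2 scale (adjusted p = 0.000127). DESeq2 did not make this last call. These genes are shared outputs of many receptors that act through ERK.

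Spry4, a Sprouty inhibitor of RAS and ERK signalling, was low, at 0.699 ± 0.158 CPM in Control, 1.6 ± 0.272 with BGP and 1.28 ± 0.22 with NaHPO4. Its log2 fold change against Control was 1.18 with BGP (SE 0.318, adjusted p = 0.0337) and 0.86 with NaHPO4 (SE 0.32, adjusted p = 0.103). BGP and NaHPO4 differed by 0.32 (adjusted p = 0.634). The BGP call was lost without any 1 of Control replicates 1, 2 or 3 or BGP replicates 1 or 2. Dusp5, another ERK phosphatase, was at 6.04 ± 0.762 CPM with BGP and 3.66 ± 0.508 with NaHPO4 (log2 fold change 0.72, SE 0.152, adjusted p = 0.00212), with Control between them at 4.59 ± 0.674.

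For each tested member, the genes with the most similar pattern were taken by Pearson's r of log2 CPM over the 9 libraries, among 12078 genes with a mean of at least 1 CPM. The libraries share their conditions and scaling, so r is given as a description, followed by r of the deviations from the condition means. Both values come from the libraries that chose the genes, so the second is no separate check. The r that the best of 12078 unrelated genes would reach was not computed. Fgfr1 was closest to Irak3 (0.964, 0.856 within conditions) and Eya4 (0.962, 0.774). Fgfr2 was closest to Zfr2 (0.971, 0.839) and Sertad4 (0.966, 0.663). For Fgfr3 these were Adamtsl4 (0.985, 0.955) and Scara3 (0.982, 0.855). Fgfrl1 was nearest to Zfp809 (0.936, 0.979) and Irak1bp1 (0.916, 0.86). The pattern of Fgf2 was most like that of Usp7 (0.976, 0.913) and Med14 (0.966, 0.819), and that of Fgf7 most like that of Haus2 (0.959, 0.95) and Cfap69 (0.959, 0.963).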

How the data were processed

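RNA sequencing of 9 libraries (3 each for Control, BGP and NaHPO4) was analysed, grouped by the treatment in the sample labels. Libraries were made with a stranded poly(A) kit. The authors deposited a table of whole-number counts per Ensembl gene on GRCm39, not normalized, and a second table of TMM-scaled values, a signal without length correction that the authors made from those counts and that served here for 1 alternative. FastQC and edgeR are named in the submitters' processing notes. The aligner, the counting program and the use of strand are not given in the sources used here.

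Counts of the 55416 genes were filtered with filterByExpr (count minimum 10), which left 13679 genes, and scaled by TMM in edgeR 4.0.16. All 9 libraries were fitted together with glmQLFit, without a block, and glmQLFTest gave p-values for the 3 comparisons, adjusted over all tested genes by the Benjamini-Hochberg method. An adjusted p below 0.05 was a call. Standard errors came from the quasi-likelihood F statistic, and CPM is on the TMM scale with SDs over 3 libraries. Levels per kilobase used the union of exons in the GENCODE annotation of GRCm39. Total counts were 21390839 to 28234404 per library. The alternatives were DESeq2 1.42.0, limma 3.58.1 on log2(value + 1) of the TMM table, edgeR's likelihood ratio test, other scalings, filters and call rules, a replicate block, a fit of the compared groups only, and each library left out. R 4.3.3, Python 3.11.15 and pandas 2.3.3 were used.

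The members, the gene lists and the marker lists were chosen with earlier results of these data known. The genes named are the 7 members, up to 4 called genes per pathway list with the largest absolute log2 fold change over the comparisons, and for each tested member the 2 genes with the most similar pattern. The marker genes and overlapping genes given as values stand outside that rule, and the alternatives for the pathway lists were added after the data were seen. Deviations of same-numbered libraries from their condition means had a mean r of 0.0127 (from -0.0092 to 0.0426, against -0.00633 for different numbers). No pair exceeded 0.1, so the numbers were not used as pairs. The procedure was tested on simulated data whose planted changes were larger than any change of a member here. It was not tested on changes as small as those of the members.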

Additional observations from a re-analysis of the deposited data

How the results depend on the processing

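The count of members called was recomputed under 20 alternatives per comparison, and 358 of 360 log2 fold changes of members kept their direction. For BGP against Control, 1 member was called (Fgf2), DESeq2 called 2 (Fgfr2 in addition), and a minimum log2 fold change of 0.5 or an adjusted p below 0.01 left 0. For NaHPO4 against Control, 3 were called, and 0 with the minimum of 0.5. An adjusted p below 0.01 kept Fgfr2 and Fgfr3 there (0.00764 and 0.000139 by edgeR's quasi-likelihood test) and dropped Fgfr1 (0.014). For BGP against NaHPO4, 1 was called (Fgfr3), 2 in a fit of these groups only or without a filter (Fgf7 in addition), and 0 with limma, with the minimum of 0.5 or with an adjusted p below 0.01. Total counts in place of TMM also gave 1 there, but it was Fgfr1 (log2 fold change -0.11, adjusted p = 0.033). With 1 library left out, the counts ranged from 0 to 1, from 2 to 4 and from 0 to 2 in these comparisons. The direction of Fgf7 reversed without Control replicate 3 for BGP (0.04) and without Control replicate 2 for NaHPO4 (-0.0045), over ranges of -0.23 to 0.04 and -0.0045 to 0.26 with 1 library left out. The cause was not tested, beyond the loss of a library in the last 2 settings.

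The replicate block gave 1, 3 and 1 members called and moved the calls over all genes from 346, 1009 and 736 to 351, 996 and 749. Of 9 libraries, 7 correlated best with a library of their own number, a hint from the data and not from the design. Among the surrounding genes, the calls of Fgf23, Sdc1, Gpc1, Etv4 and Dusp5 held under all 18 alternatives other than the stricter call rules. Fgf18, with at most 4 counts in a library, was too low to be tested.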
